A study of Bos taurus with 8 samples.

Results

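The high mobility group (HMG) proteins are small, abundant chromatin proteins that bend or loosen DNA without being histones. The genes described here are HMGB1, HMGB2, HMGB3, HMGA1, HMGN1, HMGN2 and HMGN3, taken from 8 named members of the family. Every non-control probe whose accession mapped to one of the 8 symbols was included, which gave 21 of 43653 probes. They read 7 of the 8 genes, out of 11054 genes named on the array. HMGA2 was dropped because no probe accession matched its entry in the RefSeq table, and its level was not analysed here. The family was put forward because HMGB3 differed between cloned and normal calves on the same arrays. Group differences of these genes are therefore given as a description, with no test, and the probes of 1 gene are not independent of each other.

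HMG proteins fall into 3 structural groups. The HMGB proteins carry HMG boxes, which bend DNA, and HMGB1 is also released from stressed or dying cells as an alarm signal. The HMGA proteins bind AT-rich DNA through AT-hooks and are typical of embryonic and dividing cells. The HMGN proteins bind nucleosomes directly and compete with linker histones.

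RNA of whole lung was measured on 8 arrays with 1 dye, Cy3, 1 array for each Holstein calf. The 4 clones carry the label of respiratory failure and died within 4 days of birth, and the 4 normal calves were naturally conceived, healthy and slaughtered at 4 days. Every title gives an age of 4 days. Cloning, fatal illness and slide changed together, since slide 1 held all clones and slide 2 all normal calves, so these cannot be told apart. The donor cell lines and the number of lines behind the clones are not given in the sources used here. Y-linked probes exceeded background in clones 2, 3 and 4 but not in clone 1 or any normal calf. By this reading sex differed among the clones and, in part, between the groups.

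Between 78.8% and 83.5% of spots per array were well above background. Lung identity was clear, with 6 of 7 type II cell markers measured and SFTPC, SFTPB and ABCA3 well above background in all 8 animals. In whole tissue, a change in cell numbers and a change in RNA per cell cannot be told apart. Levels below are log2 processed signals minus the array's own 75th percentile, so a level compares animals for 1 probe and never 1 probe with another. The lowest correlation between 2 clones was 0.907, against 0.984 between 2 normal calves. On this scale the 10 spike-in controls, RNA added in equal amount to each sample, were all higher in clones, by a mean of 0.57.

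All 21 HMG probes passed the filter on dim probes, and 20 were well above background on all 8 arrays. The mean was higher in clones for 19 of 21 probes, against 48.0% of all 35636 kept probes. The median difference was 0.29 over the HMG probes and -0.0211 over all kept probes. Every clone lay above every normal calf for 8 HMG probes, those of HMGB2, HMGB3 and HMGN1 and 1 of HMGB1, against 4.77% of all kept probes. No HMG probe had every clone below every normal calf, against 5.36%. In the fit across all probes (limma, adjusted p under 0.05) 2 HMG probes passed, both of HMGB3 and both higher in clones, against 0.0477% of all kept probes, and 0 passed as lower, against 0.129%. HMGB3 was chosen for this difference, so its place among the called probes was fixed by the choice. The counts come from that same contrast and are read no further.

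**Figure D1:**
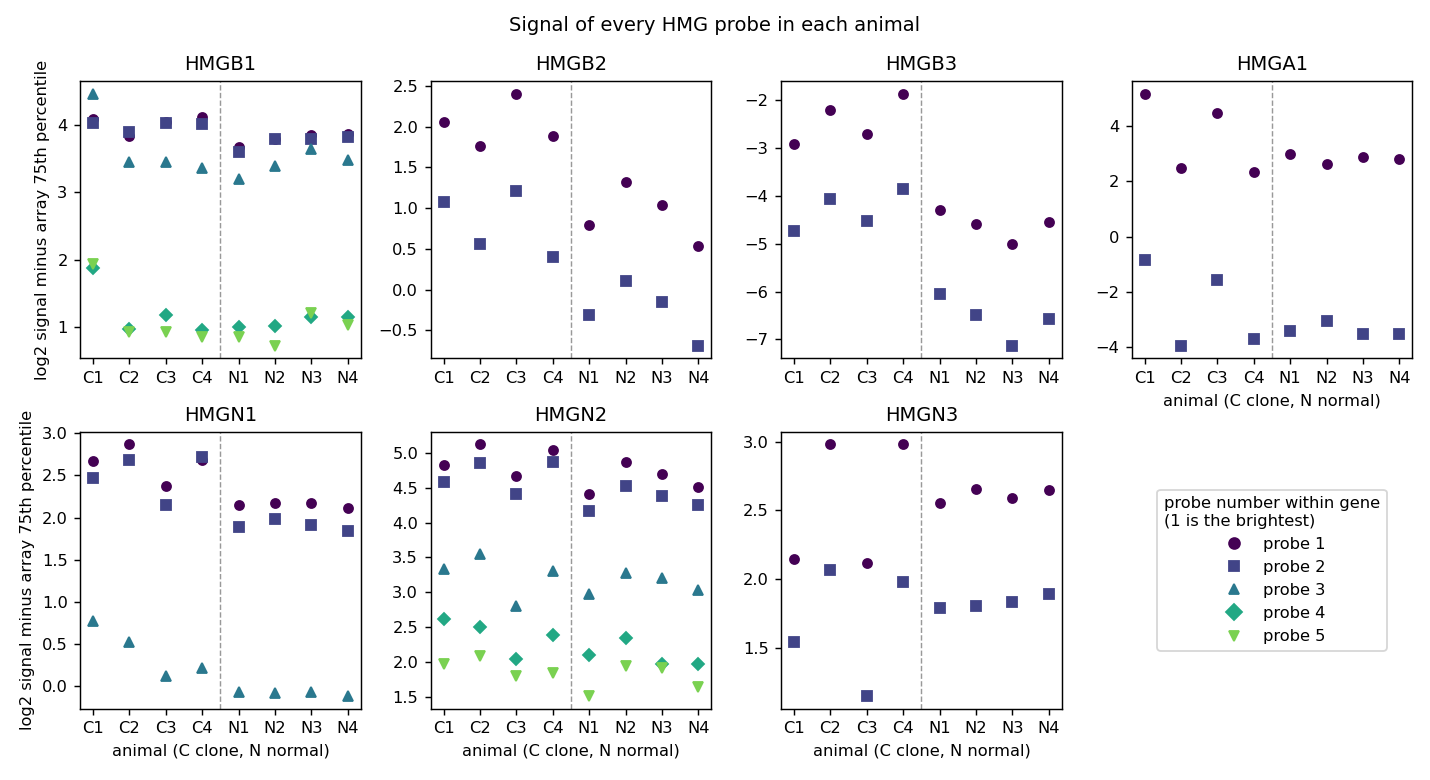
Log2 signal minus the array's 75th percentile (vertical axis) for each of the 21 HMG probes in clones 1 to 4 and normal calves 1 to 4 (horizontal axis), 1 panel per gene and 1 symbol per probe. HMGB2, HMGB3 and HMGN1 are higher in every clone on every probe, while HMGA1 and HMGN3 split the clones in opposite directions.

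HMGB3, an X-linked HMG-box protein linked to stem and progenitor cells, had the largest difference of the family. On its brighter probe the clones measured -2.91, -2.20, -2.71 and -1.87 and the normal calves -4.31, -4.58, -5.00 and -4.56. The lowest clone lay 1.40 above the highest normal calf, so the groups were well separated. The means were -2.42 ± 0.47 and -4.61 ± 0.29 (SD, n = 4 each), which differ by 2.19 on the log2 scale, with a 95% interval of 1.57 to 2.81, or 4.56-fold. The dimmer probe gave -4.73, -4.06, -4.53 and -3.86 in clones and -6.06, -6.48, -7.13 and -6.58 in normal calves, a difference of 2.27 (1.61 to 2.92). It was well above background in 4 of 4 clones but only 1 of 4 normal calves, so it passed the filter on dim probes through the clones, and the size of its difference is limited by background.

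On this scale the same order held within the clones on both HMGB3 probes, with clone 4 highest, then clones 2, 3 and 1. Before centring, clone 1 was above clone 3 on both probes. The processed signals of the dimmer probe were 54.3, 78.8, 47.2 and 78.6 units in clones 1 to 4. The processed signals of the brighter probe before centring were 191, 286, 167 and 313 units in clones and 96.1, 64.0, 57.8 and 78.4 in normal calves. The difference was 1.61 when arrays were centred on the spike-ins and 2.26 with quantile normalization. With normexp background correction and 75th percentile centring it was 0.46 and the groups overlapped, and the dimmer probe turned to -0.24. In that setting the brighter probe took values of 1135 and 642 in normal calves 1 and 2, from raw medians of 135.5 and 104. With normexp and quantile normalization the 2 probes differed by 1.05 and 0.54, with every clone above every normal calf on both. Local background subtraction gave 1.52 and 1.04, again with the groups apart on both. With 1 animal left out the difference of the brighter probe lay between 2.00 and 2.35. This probe passed the threshold in 2 of those 8 fits.

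HMGB3 lies on the X chromosome, so sex was read from the Y-linked USP9Y and DDX3Y. Their 3 probes exceeded background in clones 2, 3 and 4 but not in clone 1 or any normal calf. Clone 1, which like the normal calves had no Y-linked probe well above background, was at -2.91 and lay 1.40 above the highest of them. The part of sex in the difference of the other clones was not tested. The 5 measured genes nearest to HMGB3 on either side, a set added after the values were seen, gave differences of both signs. Of these neighbours 0 passed (limma, adjusted p between 0.200 and 0.952), 2 had an unadjusted p under 0.05 (CNGA2 at -0.94 and GABRA3 at 0.93), and the differences ran from -1.21 to 0.93. The nearest measured on either side, CD99L2 and VMA21, differed by 0.39 and -0.0451. VMA21 assembles the proton pump of the vacuole and CD99L2 is an adhesion molecule.

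Among 9630 named genes, SLC5A3, VWA1, IGFBP5, MFAP5 and ARL10 had the profiles most like that of HMGB3 over the 8 animals. Their root mean square differences from HMGB3 were 0.37, 0.42, 0.42, 0.45 and 0.50, with a median of 1.22 over all genes compared. SLC5A3 imports myo-inositol, IGFBP5 binds insulin-like growth factors, and VWA1 and MFAP5 belong to the extracellular matrix. The group differences of these 5 genes were 1.50, 1.58, 1.91, 2.02 and 1.38. In all 5, clones 2 and 4 were the highest of the clones, as they were for HMGB3. The genes were chosen by profile, which favours this order and their positive differences.

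HMGB2, the HMG-box protein most tied to dividing cells and to mitotic chromosomes, was higher in all 4 clones on both probes. The brighter probe read 2.05, 1.76, 2.40 and 1.88 in clones and 0.79, 1.31, 1.04 and 0.53 in normal calves. The gap between the lowest clone and the highest normal calf was 0.44. The means were 2.03 ± 0.28 and 0.92 ± 0.34 (SD, n = 4 each), a difference of 1.11 (95% interval 0.58 to 1.63), or 2.15-fold. The other probe gave 1.08, 0.56, 1.22 and 0.41 against -0.31, 0.10, -0.15 and -0.69, a difference of 1.08 (0.49 to 1.66). Both differences shrank to 0.53 and 0.50 with arrays centred on the spike-ins, where the groups overlapped on the second probe.

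The order of the clones in HMGB2 was not that of the mean of the proliferation genes. Over 13 measured proliferation genes, clones 1 to 4 had mean levels of 1.04, -1.01, -2.14 and -0.43 and normal calves 1 to 4 of -2.17, -2.40, -1.42 and -2.72. On this scale clone 3 had the highest HMGB2 of all animals and a proliferation mean inside the normal range. Clone 1 had the highest proliferation mean and the second highest HMGB2. Before centring, HMGB2 was higher in clone 1 than in clone 3, at 5975 and 5789 units on the brighter probe. The other probe gave 3037 and 2540 units. Of the 13 proliferation genes 2 had every clone above every normal calf, among them PLK1. It read 2.68, 1.51, 2.09 and 2.00 in clones and 0.96 to 1.20 in normal calves. The genes whose profiles were most like HMGB2 were H4C4, PAGR1, H2AC20, ANO1 and RPL26L1, at root mean square differences of 0.22, 0.22, 0.22, 0.23 and 0.24, with a median of 0.74 over all genes compared. H4C4 and H2AC20 encode core histones, ANO1 a calcium-activated chloride channel and RPL26L1 a ribosomal protein. Their differences between groups were 1.09, 1.06, 1.24, 1.09 and 0.78 in that order.

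**Figure D2:**
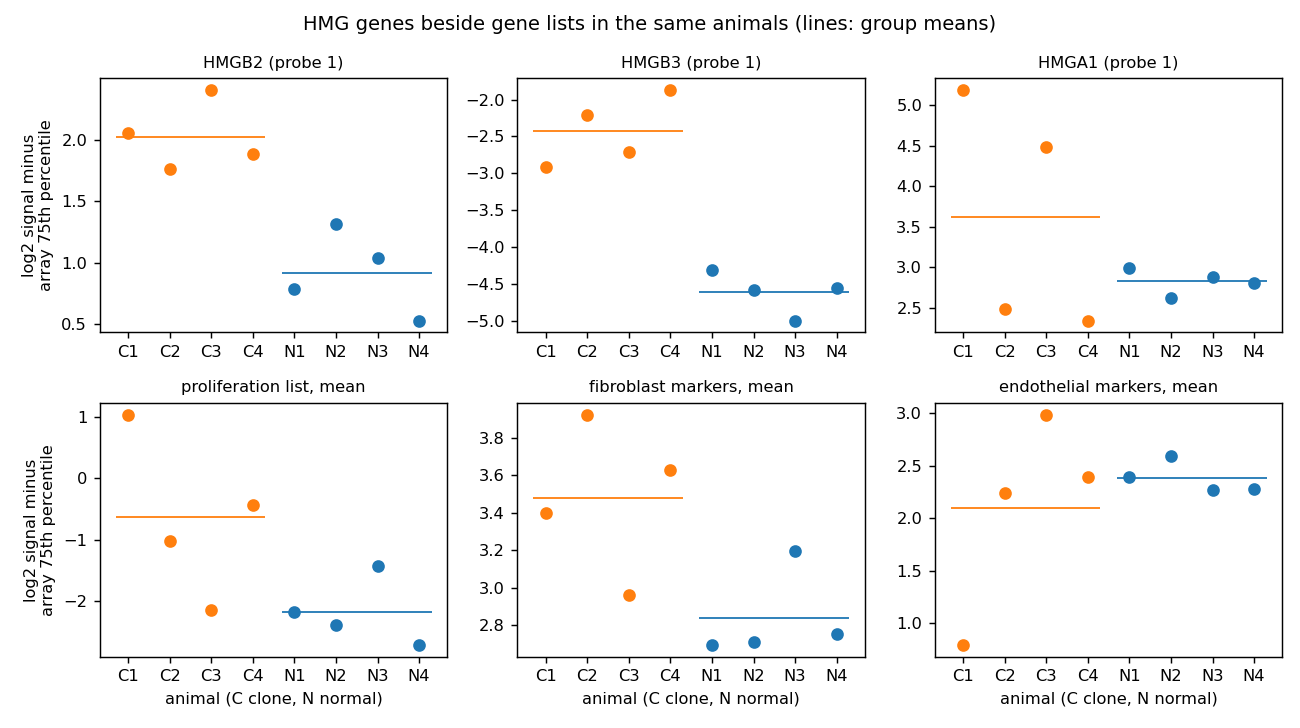
Log2 signal minus the array's 75th percentile (vertical axis) in each clone (orange, C1 to C4) and normal calf (blue, N1 to N4) for the brightest probe of HMGB2, HMGB3 and HMGA1 and for the mean of the proliferation, fibroblast and endothelial lists, with lines at group means. On this scale HMGB2 is highest in clone 3, whose proliferation mean of -2.14 lies within the range of the normal calves.

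HMGB1, the most abundant HMG-box protein in most tissues, was read by 5 probes listed under the same transcript accession, and they did not show the same pattern. On probe 1 the clones measured 4.09, 3.84, 4.05 and 4.13 and the normal calves 3.68, 3.80, 3.86 and 3.87. Probe 2 gave 4.04, 3.90, 4.03 and 4.03 against 3.60, 3.80, 3.80 and 3.82, with every clone above every normal calf by at least 0.0735. These 2 probes thus differed between groups by 0.22 and 0.24, and their profiles were within a root mean square of 0.0455 of each other.

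The other 3 HMGB1 probes set clone 1 apart. Probe 3 read 4.47 in clone 1 and 3.46, 3.45 and 3.36 in clones 2, 3 and 4, with normal calves at 3.20, 3.40, 3.64 and 3.48. Probe 4 read 1.87 in clone 1 against 0.96, 1.18 and 0.95 in the other clones and 1.00, 1.00, 1.14 and 1.14 in normal calves. Probe 5 read 1.94 in clone 1 against 0.93, 0.92 and 0.85 in the other clones and 0.85, 0.72, 1.20 and 1.03 in normal calves. Clone 1 stood 1.04, 0.80 and 0.99 above the normal mean on these 3 probes but 0.29 and 0.28 on the first 2.

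Without clone 1 the differences of probes 3, 4 and 5 turned to -0.0044, -0.0404 and -0.0521. With all animals the 5 HMGB1 differences lay between 0.17 and 0.26, with standard errors from 0.15 to 0.27. With spike-in centring all 5 were negative, from -0.40 to -0.32. HMGB1 has many retrotransposed copies in mammalian genomes. Which transcripts each probe reads could not be checked without probe sequences.

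In clone 1 the marker lists also departed from the other clones. The mean of 4 endothelial markers was 0.79 in clone 1 and 2.24, 2.99 and 2.39 in clones 2, 3 and 4, with normal calves from 2.27 to 2.59. The mean of 3 B and plasma cell markers was -0.48 in clone 1, against -3.14 to -2.58 in the other clones and -3.06 to -1.70 in normal calves. It was carried mostly by JCHAIN, the joining chain of antibodies, at 2.85 in clone 1 and -2.28 to -1.99 in the other clones. MS4A1 was also highest in clone 1, at -3.78, while CD79A was at -0.50 there, below every normal calf. The proliferation mean of 1.04 was also highest there. Clone 1 was also the only clone with no Y-linked probe well above background. The part of sex and of these cell types in the HMGB1 signal of clone 1 was not tested.

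HMGA1, an AT-hook protein of dividing and embryonic cells, split the clones. The brighter probe measured 5.18 and 4.48 in clones 1 and 3 while clones 2 and 4 were at 2.49 and 2.35, with normal calves close together at 2.99, 2.63, 2.88 and 2.81. Clones 1 and 3 lay above all normal calves, and clones 2 and 4 below all of them. The dimmer probe showed the same split, with -0.87, -3.96, -1.56 and -3.72 in clones 1 to 4 and normal calves at -3.41, -3.07, -3.52 and -3.54. The SD was 1.42 in clones and 0.15 in normal calves on the brighter probe (n = 4 each). The group difference of 0.80 (95% interval -0.60 to 2.20) therefore describes no single clone, and it was -0.26 with array weights, which give less weight to arrays that vary more. It was 0.28, 1.18, 0.51 and 1.23 without clones 1, 2, 3 and 4 in turn.

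This split was also seen in HMGB1 probe 4, and its mirror image in HMGN3. Clones 1 and 3 above and clones 2 and 4 below every normal calf was found in 3.87% of all complete kept probes, and the reverse in 4.21%, so the pattern is common on these arrays. Clones 3 and 1 were hybridised at positions 1 and 2 of their slide and clones 2 and 4 at positions 3 and 4. Normal calves 1 and 2, at positions 1 and 2 of the other slide, measured 2.99 and 2.63 for HMGA1, and normal calves 3 and 4, at positions 3 and 4, 2.88 and 2.81. The part of position in the split of the clones was not tested.

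The genes whose profiles were most like HMGA1, a search added after its values were seen, were SOD2, STAR, GEM, F2RL1 and STARD5. Their root mean square differences were 0.26, 0.29, 0.31, 0.32 and 0.32, with a median of 1.05 over all genes compared. SOD2, the mitochondrial superoxide dismutase, read 2.79 and 2.45 in clones 1 and 3 and 0.42 and 0.34 in clones 2 and 4, with normal calves between 0.44 and 1.44. STAR moves cholesterol into mitochondria, GEM is a small GTPase and F2RL1 a receptor activated by proteases.

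HMGN1, a nucleosome-binding protein that loosens chromatin, was higher in every clone on all 3 of its probes, by a small amount. The brightest probe read 2.67, 2.87, 2.37 and 2.68 in clones and 2.15, 2.17, 2.17 and 2.11 in normal calves. The gaps between the groups were 0.20, 0.17 and 0.19 on the 3 probes. The normal calves were very close to each other, with an SD of 0.0307 on the brightest probe against 0.21 in clones (n = 4 each). The differences were 0.50 (95% interval 0.12 to 0.87), 0.60 (0.19 to 1.01) and 0.50 (0.0669 to 0.93), or 1.41-fold to 1.52-fold. On the spike-in scale they were -0.0787, 0.0266 and -0.0787, and with quantile normalization the groups stayed apart on 1 of the 3 probes.

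HMGN2, a close relative, differed less. Its brightest probe gave 4.82, 5.12, 4.67 and 5.03 in clones and 4.40, 4.86, 4.70 and 4.51 in normal calves, and the groups overlapped. The differences over its 5 probes ran from 0.12 to 0.35, with standard errors from 0.17 to 0.20. Clone 2 was the highest clone on 3 of the probes with clone 3 the lowest on all 5. All 5 differences were negative with spike-in centring.

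HMGN3, the member of this group linked to endocrine and neural tissues, split the clones in the opposite sense to HMGA1. Its brighter probe measured 2.14 and 2.12 in clones 1 and 3 and 2.98 and 2.98 in clones 2 and 4, with normal calves at 2.55, 2.65, 2.59 and 2.65. On the second probe the clones read 1.54, 2.07, 1.15 and 1.98 and the normal calves 1.79, 1.80, 1.83 and 1.89. On both probes clones 1 and 3 lay below and clones 2 and 4 above all normal calves. The means nearly cancelled, with differences of -0.0557 (95% interval -0.62 to 0.51) and -0.15 (-0.66 to 0.37). The SD of the brighter HMGN3 probe was 0.49 in clones and 0.0471 in normal calves.

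The clones varied more than the normal calves on 17 of the 21 HMG probes, and on 90.0% of all kept probes. The ratio of clone to normal SD had a median of 2.26 over the HMG probes and 3.07 over all kept probes. The 4 exceptions were probe 2 of HMGB1, the brighter probe of HMGB2, the dimmer probe of HMGB3 and probe 5 of HMGN2, with ratios of 0.67, 0.83, 0.91 and 0.61. The 3 genes in which every clone was higher on every probe thus differed in how tightly the animals agreed. HMGN1 had tight normal calves, and in HMGB2 both groups were about equally spread.

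**Figure D3:**
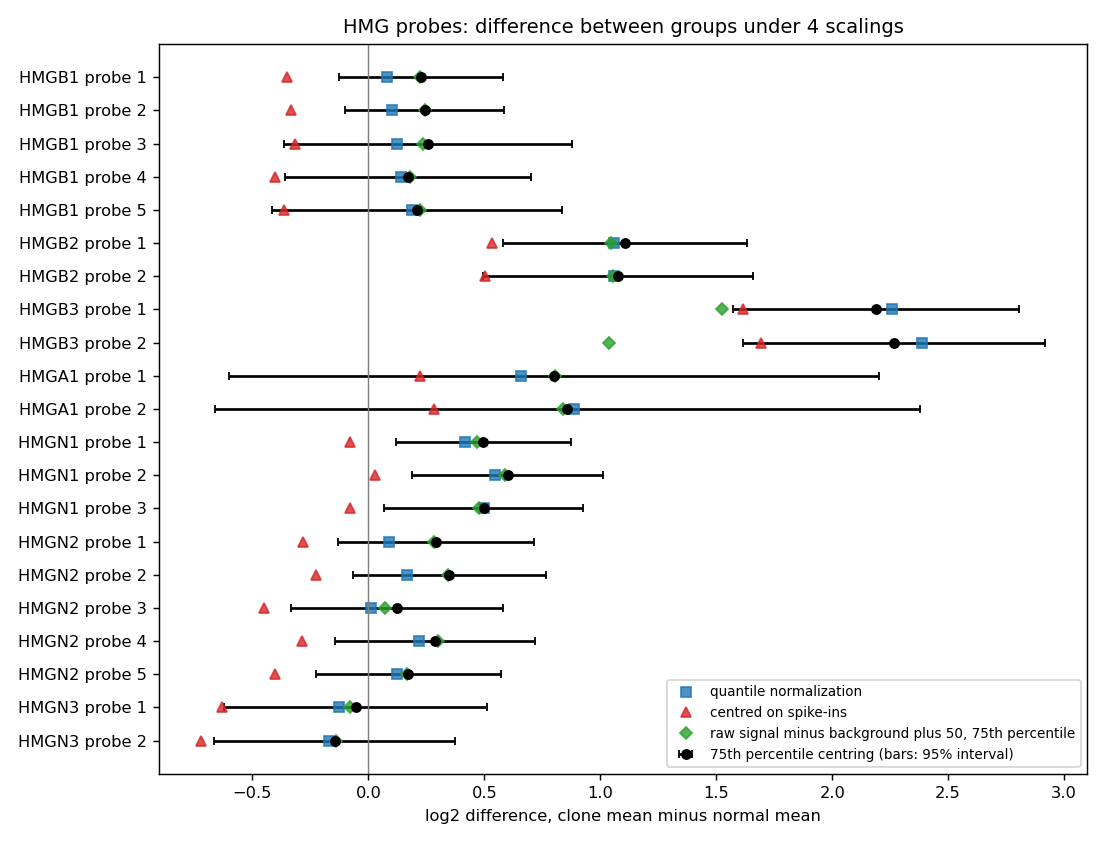
Log2 difference between the clone mean and the normal mean (horizontal axis) for each of the 21 HMG probes (vertical axis). Black points with 95% intervals are centred on the 75th percentile, and coloured symbols show quantile normalization, spike-in centring and raw signal minus background plus 50. Spike-in centring moves all probes lower by 0.57 and leaves 7 of 21 above 0.

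Centring decided the sign of the small differences. With spike-in centring 7 of 21 HMG probes had the higher mean in clones, both of HMGB2, HMGB3 and HMGA1 and 1 of HMGN1, and the median of all kept probes was -0.60. Every clone lay above every normal calf on 3 probes there, both of HMGB3 and the brighter one of HMGB2. Relative to the median of all kept probes, 19 of the 21 HMG probes were higher under either centring. Both centrings subtract 1 value per array from all probes, so this count could not differ between them.

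No gene of the companion lists passed the threshold. Of 88 genes in 7 lists, 59 were measured. On the brightest kept probe 48 had a positive and 11 a negative log2 difference. The median was 0.26, against -0.0161 over all 9867 genes. By limma 0 of 59 passed an adjusted p of 0.05, against 0.182% of all genes, and 12 had an unadjusted p under 0.05, all higher in clones, against 6.37% of all genes in that direction and 6.58% in the other. Every clone was above every normal calf in 6 of the 59 genes and below in 1, against 5.09% and 4.78% of all genes. The count that passed was 4 without clone 1 (HMG20B, IGF2, SNAI2 and PLK1), 1 without clone 3 (TOX) and 25 with array weights.

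Among 4 other HMG family genes the median difference was -0.0661. HMG20B, which works in a complex that silences neuronal genes, was at 4.17 ± 0.25 in clones and 3.32 ± 0.0550 in normal calves (SD, n = 4 each), a difference of 0.85 (SE 0.18, limma adjusted p = 0.119), and its 3 probes had the same sign. HMGN4, a gene derived from an HMGN2 copy, differed by -0.46 (adjusted p = 0.384) with every clone below every normal calf. HMGXB4 differed by 0.0748 (adjusted p = 0.906).

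On their brightest probes all 6 measured genes of other HMG-box chromatin proteins had positive differences, with a median of 0.24. Of the 3 kept probes of TOX4 only 1 was positive, and of the 3 of SMARCE1 2 were. TOX, a regulator of T cell development, differed by 0.84 (adjusted p = 0.196) and SMARCE1, a subunit of the SWI/SNF remodeller, by 0.40 (adjusted p = 0.427), both with every clone above every normal calf. BBX differed by 0.28 and the histone chaperone subunit SSRP1 by 0.20 (adjusted p = 0.589 and 0.710).

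Of 9 linker and variant histone genes 8 had positive differences on their brightest probes, with a median of 0.22. MACROH2A1, 1 of these 8, was positive on 1 of its 4 kept probes. H2AZ1 encodes the variant H2A.Z and differed by 0.65 (adjusted p = 0.378). H2AX differed by 0.53 and MACROH2A2 by 0.22, with adjusted p of 0.635 and 0.719. H2AX was high in clone 1 alone, at 2.94 against 1.00, 1.25 and 1.08 in clones 2, 3 and 4 and 0.98 to 1.16 in normal calves. Linker histones compete with HMG proteins for nucleosomes, and H1-2 and H1-3 differed by -0.16 and 0.44.

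Receptors and partners of extracellular HMGB1 had a median difference of 0.15 over 9 genes, 6 positive and 3 negative, and none had an unadjusted p under 0.05. CXCR4, which responds to HMGB1 bound to CXCL12, differed by 0.50. TLR2 differed by 0.29, TLR9 by 0.26 and TREM1 by 0.15. The limma adjusted p of these 4 genes lay between 0.562 and 0.744. Of the 4 kept TLR2 probes only 1, the brightest, had a positive difference, against 2 of 2 for CXCR4. AGER, the receptor RAGE and a marker of type I alveolar cells, is named outside the rule. It differed by 0.0609 (limma adjusted p = 0.963), and 1 of its 2 kept probes had this sign. Nuclear partners of the HMGB proteins had a median of 0.0072 over 9 genes, also with none at an unadjusted p under 0.05. NME1, ANP32A and TREX1 belong to the SET complex with HMGB2 and differed by -0.37, 0.26 and -0.22, with adjusted p between 0.597 and 0.808.

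Genes of the HMGA2 and let-7 axis had a median of 0.56 over 9 genes, 7 positive. SNAI1 and SNAI2, repressors of E-cadherin, differed by 1.57 and 1.10 (adjusted p = 0.278 and 0.340), with every clone above every normal calf for SNAI1. The cyclin CCNA2 differed by 1.94 (adjusted p = 0.386) and the fetal growth factor IGF2 by 0.43 (adjusted p = 0.438), with all 11 IGF2 probes of the same sign.

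All 13 measured proliferation genes had positive differences, with a median of 1.64, and 7 had an unadjusted p under 0.05. PLK1, BIRC5, UBE2C and CCNB1, which drive or guard mitosis, differed by 1.02, 2.09, 2.69 and 2.83, with adjusted p between 0.167 and 0.222. The list was known from earlier results to be higher and is not independent evidence. Its summed level, in units of the array's 75th percentile, ran from 9.08 to 45.8 in clones and from 9.70 to 14.4 in normal calves.

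**Figure D4:**
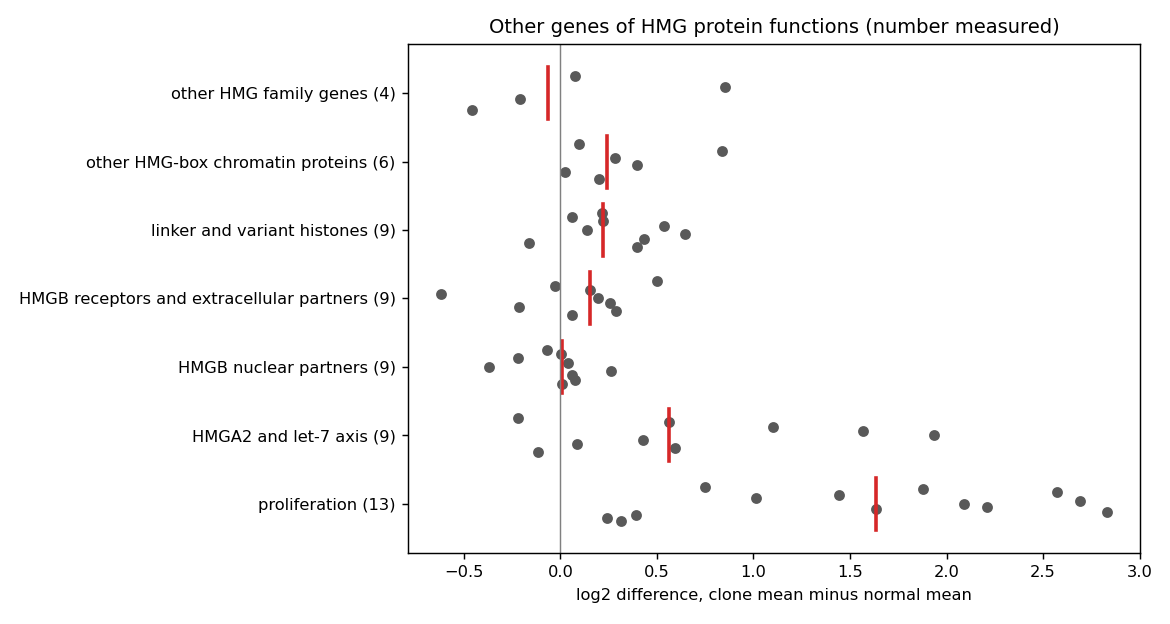
Log2 difference between the clone mean and the normal mean (horizontal axis) for each of 59 measured genes, grouped by list (vertical axis), with a red bar at each list's median. The proliferation list has the highest median, 1.64, and the other HMG family genes the lowest, -0.0661.

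Some cell type markers moved beside the HMG genes. Of 6 fibroblast markers 5 had positive differences, and their summed level, in the same units, ran from 102 to 163 in clones and from 77.4 to 106 in normal calves. The 4 macrophage markers all had negative differences, with summed levels from 53.2 to 214 and from 171 to 259. The 5 ciliated cell markers were also all negative, at 0.38 to 1.32 in clones and 0.99 to 2.03 in normal calves. So were the 5 neutrophil markers, at 3.63 to 30.4 in clones and 11.9 to 16.8 in normal calves, and the 2 airway secretory markers. The 4 erythroid markers were all positive. Of the 52 measured markers 0 passed by limma at an adjusted p of 0.05, and all markers of fibroblasts, macrophages and ciliated cells were well above background in all 8 animals. Clones 1 to 4 had fibroblast means of 3.40, 3.92, 2.96 and 3.63, and normal calves 2.69, 2.71, 3.20 and 2.75. The part of these cell types in the HMG differences was not tested.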

How the data were processed

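Scanner files were written by Agilent Feature Extraction (version 10.7, per the submitters' processing notes), and the deposited intensity was background-subtracted and not normalized between arrays, per the file headers. Control spots and 2 to 21 outlier spots per array were left out, the 75th percentile of an array was subtracted from its log2 intensity, and 35636 of 43653 probes well above background on at least 4 of 8 arrays were kept. No spot was saturated. Accessions without versions were matched to RefSeq genes on ARS-UCD2.0, which named 23492 probes. The array design names an older build, so no coordinates are given. A gene is represented by its brightest kept probe.

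The 2 groups were tested in R 4.3.3 by limma 3.58.1 (lmFit, eBayes, 2-sided, Benjamini-Hochberg over all kept probes). The p-values measure only the spread between these calves, and cloning, illness and slide differ together between the groups. Sex, as read from Y-linked probes, also differs in part. The members and lists were chosen with earlier results of these data known. Named list genes are up to 4 per list with the smallest p, and some of these are not reported here. Likeness was searched for HMGB3 and HMGB2, and HMGA1 was added later. On simulated data of 35591 probes, 7, 28, 40 and 47 of 50 probes changed by 1, 2, 3 and 4 on the log2 scale were recovered, with 8 unchanged probes called. The simulation gave both groups the same SD and drew each probe independently. In the data the median ratio of clone to normal SD was 3.07, so these counts do not measure the power or error rate of this contrast. The authors' deposited log2 value table correlated with log2 intensity at 0.999 or more per array (all medians 7.89). It served as an alternative, and how it was normalized is not stated in the sources at hand. Its 75th percentile was 10.5 on every array. It gave 60 probes past the threshold and an HMGB3 difference of 2.26, as quantile normalization did, so it is no separate check. Alternatives with raw signal used the median, since the files hold no mean signal.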

Additional observations from a re-analysis of the deposited data

Results flagged for a closer look

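In 4 of 42 groups of 4 animals, 1 HMG value lay far from the other 3. Chance alone flags about 1 in 20 such groups, and probes of 1 gene share a transcript. All 4 were in HMGB1. Clone 1 was far above the other clones on probe 3, at 4.47 against 3.46 for the nearest, and on probe 5, at 1.94 against 0.93. On probe 2 the gaps were small, with clone 2 the lowest clone at 3.90 against 4.03 and normal calf 1 the lowest normal calf at 3.60 against 3.80.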

How the results depend on the processing

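The number of probes past the threshold was 63 (4690 at an unadjusted p under 0.05) and moved with most settings. It was 5241 with spike-in centring, 0 with normexp and 75th percentile centring (2280 unadjusted), 0 with normexp by maximum likelihood (2334 unadjusted), 25 with normexp and quantile normalization, 24 with local background subtracted, 17 with the filter on all 8 arrays, 145 with a trended robust fit and 11443 with array weights. Leaving out 1 animal gave 17 (without normal calf 4) to 2566 (without clone 1). HMG probes past the threshold, 2 in all, numbered 0 to 9 over the settings, with 9 under array weights (HMGB2, HMGB3, HMGN1 and 2 of HMGN2), 3 without clone 1 (HMGB2 probe 1 added) and 0 with the replicate block. The number was also 0 with every normexp fit, without clone 2, without clone 4 and without any 1 of the normal calves. The brighter HMGB3 probe passed in 11 of 21 alternative settings, and in 2 of the 8 that left out 1 animal. With the replicate number as a block 13 probes passed, but same-numbered animals did not deviate together (correlations from -0.20 to 0.0991), so the numbers do not pair them. The HMGB3 difference of 2.19 was 1.61 with spike-ins, 0.46 and 0.45 with the normexp fits at the 75th percentile, 1.05 with normexp and quantile and 1.52 with background subtracted, and 2.00 to 2.35 with 1 animal left out. The dimmer HMGB3 probe reversed to -0.24 and -0.27 under the normexp fits at the 75th percentile. There the brighter probe took values of 1135 and 642 in normal calves 1 and 2 from raw medians of 135.5 and 104. HMG probes with the higher mean in clones numbered 7 with spike-ins. Companion genes past the threshold numbered 0, with 1 under spike-ins (HMGN4, lower), 25 with array weights and 0 to 4 with 1 animal left out. Normexp by maximum likelihood and background subtraction were added after seeing the data. Only 4 animals per group limit the precision, and the dim HMGB3 probes are limited by background.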
